A study of Daphnia magna with 16 samples.

Results

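Cuticular protein probes were followed animal by animal in the water flea Daphnia magna. They were 4 of the 51424 probes of an Agilent one-colour array, picked by name from a list that the study drew up on these same arrays of probes that differed between mutant clones and the wild type. Differences from the wild type therefore describe how the probes were chosen, and they are given here with no test. The supplement of the study names the probes as cuticular protein analogous to peritrophins 1-F (CUST_18986_PI429715507, gene model Dapma7bEVm015002), cuticular protein 50Cb (CUST_67477_PI429715507, Dapma7bEVm009626), a cuticle protein (CUST_105652_PI429715507, Dapma7bEVm002950) and cuticular protein RR-2 family member 23 precursor (CUST_8279_PI429715507, Dapma7bEVm001220). They are called peritrophins 1-F, 50Cb, cuticle protein and RR-2 23 below.

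Clone 16 (-/-) and clone 17 (-/-) carried CRISPR-Cas9 in-del mutations in both alleles of tryptophan hydroxylase (TRH), the enzyme of the rate-limiting step of serotonin synthesis. T+ (clone 13, +/-) carried such a mutation in a single allele, and the wild type W (+/+) was clone F, from which the mutant lines had been made. Each group was a single clonal line with 4 females, numbered 3, 5, 7 and 9, and each array held whole-body RNA of a single female, so that clone and mutation cannot be told apart. The labels give an age of 5 days in one field and 4 days in another, whereas the methods of the study describe adult females without their broods, and no label gives a moult stage. p-values below measure only the spread between single animals of a clone.

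The crustacean cuticle is a layer of chitin fibres and structural proteins that the epidermis secretes and the animal sheds at each moult, and adult Daphnia females moult in every brood cycle. Cuticular proteins fall into families by the way they bind chitin. Many carry the Rebers and Riddiford consensus, whose RR-2 form is found mostly in hard cuticle of insects, and those analogous to peritrophins carry a chitin-binding domain shared with proteins of the insect gut lining. Arthropod cuticular protein genes are commonly transcribed for only part of the moult cycle, each with its own timing.

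Values are log2 signals after quantile normalization, and a probe was called on in an animal when the scanner software marked its spot as well above background. Each array held 59125 gene spots, and 9851 to 14616 probes per array were well above background. W replicate 7 stood apart, with the lowest number of probes on and negative control spots whose 95th percentile was a signal of 129, against 31.8 to 58.6 on the other 15 arrays. Each of the 4 probes was read from 1 spot per array, none of them saturated or marked as an outlier.

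Peritrophins 1-F, of a family that in insects carries a single chitin-binding domain, was an on or off signal. In clone 16 its log2 signals in replicates 3, 5, 7 and 9 were 3.75, 3.84, 6.50 and 3.78. In clone 17 they were 9.44, 4.37, 4.22 and 4.50. The probe was on in only 1 animal of each of these clones, replicate 7 of clone 16 and replicate 3 of clone 17, and the clone 17 animal lay within the range of W. In T+ the signals were 3.77, 3.77, 3.85 and 3.86, whereas in W they were 9.85, 8.10, 8.64 and 10.15. No T+ animal and every W animal had the probe on, a pattern shown by 0.422% of the 17286 tested probes. None of the 4 probes was off throughout clone 16 or clone 17 while on in every W animal, where 0.127% and 0.0810% of tested probes were. With T+ at its detection limit, the probe was at least 8.36-fold lower in T+ than in W, and measured means were 3.81 ± 0.049 and 9.19 ± 0.973 (SD, n = 4 each). Whole-body RNA cannot separate fewer cells that make a transcript from less transcript in each cell.

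50Cb, which shares its name with a Drosophila cuticular protein gene, was graded over almost the whole scale of the array. Its signals in clone 16 were 5.50, 3.81, 8.73 and 4.76, with only replicate 7 on. Clone 17 gave 12.13, 7.19, 9.19 and 9.22, and all 4 animals were on. T+ gave 9.14, 5.25, 7.42 and 8.72, and replicate 5 was off. The highest animal of clone 17 was again replicate 3, and it was the only mutant animal within the range of W, where signals were 13.70, 11.82, 11.97 and 13.42. Means were 5.70 ± 2.13 in clone 16, 9.43 ± 2.03 in clone 17, 7.63 ± 1.75 in T+ and 12.73 ± 0.971 in W (SD, n = 4 each). Against W the log2 differences were -7.03 for clone 16, -3.30 for clone 17 and -5.09 for T+.

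The cuticle protein, whose name gives no family, was on in all 16 animals and differed most between them. Clone 16 gave 6.30, 7.24, 8.68 and 6.06. Clone 17 gave 15.54, 9.59, 13.40 and 13.45. T+ gave 13.18, 8.02, 11.70 and 12.76. The lowest values thus came from the 4 animals of clone 16 together with replicate 5 of T+ and of clone 17, which lay more than 3 log2 units under the other animals of their clones. W gave 16.16, 12.27, 12.04 and 15.48, with replicates 3 and 9 high and replicates 5 and 7 lower, and 5 of the 12 mutant animals reached at least the lowest W animal. Means were 7.07 ± 1.19 in clone 16, 13.00 ± 2.48 in clone 17, 11.42 ± 2.35 in T+ and 13.99 ± 2.14 in W (SD, n = 4 each). The log2 difference from W was -6.92 in clone 16, -0.99 in clone 17 and -2.57 in T+, and for clone 17 it was 0.14 when its replicate 5 was left out.

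RR-2 23, named for the Rebers and Riddiford family, was ordered differently. Clone 16 gave 8.36, 5.15, 11.95 and 8.75, with only replicate 5 off. Clone 17 gave 6.28, 9.98, 3.66 and 3.64, with replicates 3 and 5 on. T+ gave 6.41, 4.81, 5.00 and 6.75, with replicates 3 and 9 on. Clone 16 replicate 7 was the only mutant animal within the range of W, and in clone 17 the highest animal was replicate 5, which had the lowest 50Cb and cuticle protein signals of that clone. W gave 10.38, 13.69, 12.91 and 12.32, so that its replicates 5 and 7 were highest, whereas replicates 3 and 9 were highest for the other 3 probes. Means were 8.55 ± 2.78 in clone 16, 5.89 ± 3.00 in clone 17, 5.74 ± 0.980 in T+ and 12.33 ± 1.41 in W (SD, n = 4 each). The log2 differences from W were -3.78 for clone 16, -6.43 for clone 17 and -6.58 for T+.

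**Figure D1:**
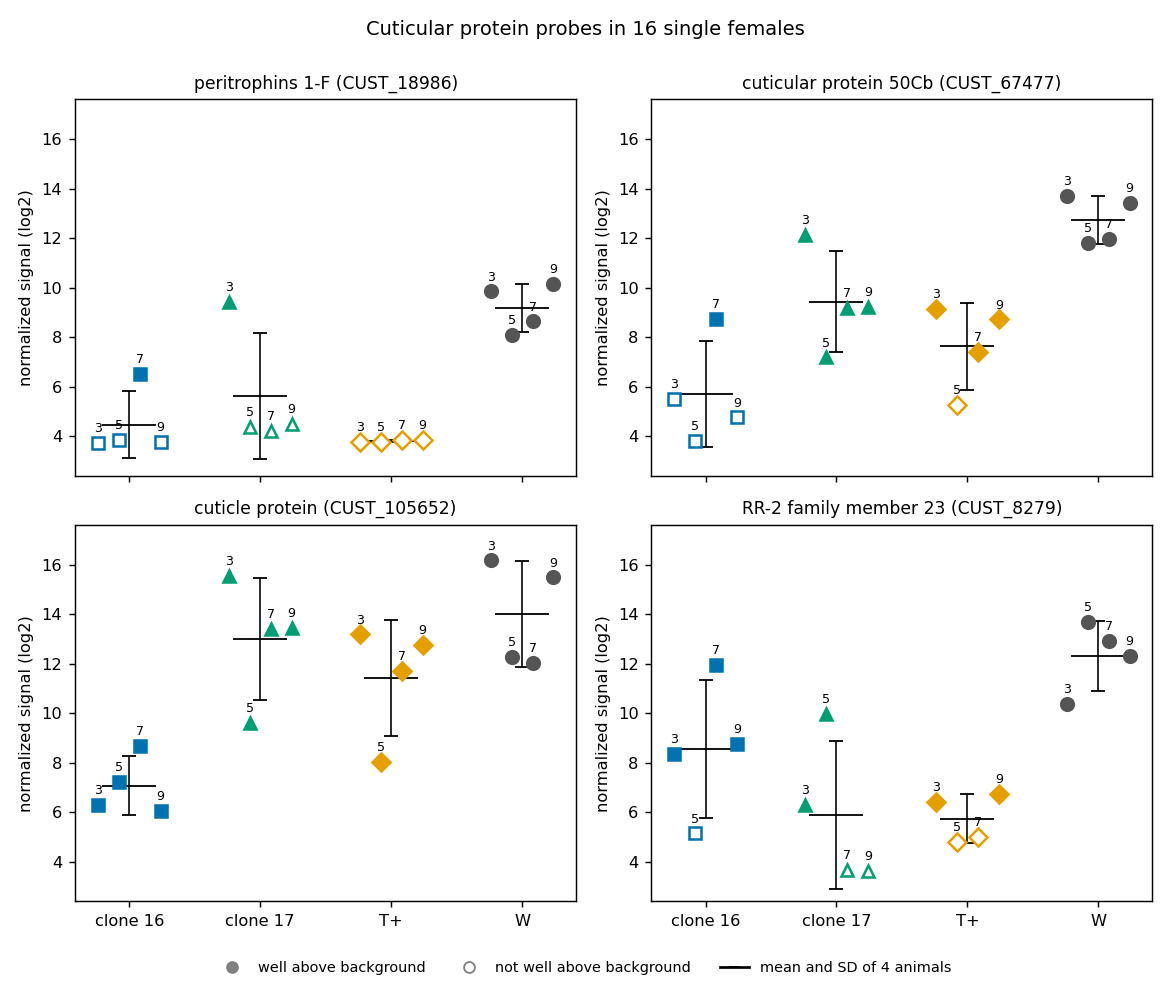
Normalized log2 signal (y axis) of the 4 probes in each female of clone 16, clone 17, T+ and W (x axis). Numbers are replicates, filled symbols are animals in which the probe was well above background, and bars show mean and SD of 4 animals. Peritrophins 1-F was on in clone 16 replicate 7 (6.50), clone 17 replicate 3 (9.44) and every W animal, and in no T+ animal.

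All 4 probes were on together in every W animal and in 2 of the 12 mutant animals, clone 16 replicate 7 and clone 17 replicate 3. Among the other mutant animals 3 probes were on in clone 17 replicate 5 and in T+ replicates 3 and 9. Only the cuticle protein was on in clone 16 replicate 5 and T+ replicate 5. Counted over animals, peritrophins 1-F was on in 6 of 16, 50Cb in 12, the cuticle protein in 16 and RR-2 23 in 11. When a probe counted as on above the 95th percentile of negative controls, the numbers were 6, 13, 16 and 11, and above the 99th percentile they were 4, 9, 12 and 8. At the 99th percentile no mutant animal had all 4 on. Peritrophins 1-F in clone 16 replicate 7 and RR-2 23 in clone 17 replicate 3 fell below it, as did peritrophins 1-F in W replicate 5.

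The 4 probes ranked among the most variable on the array. From the lowest to the highest animal their signals spanned 6.40, 9.89, 10.11 and 10.05 log2 units in the order above, against a median of 1.41 over the tested probes. These ranges exceeded those of 96.7%, 99.6%, 99.7% and 99.7% of tested probes. They include the difference from W that chose the probes. The study had also filtered its list by an analysis of variance over the 4 clones, which uses the spread inside clones, so the following values are a description too. Within clones the SD was 1.52, 1.78, 2.10 and 2.22 log2 units, against a median of 0.357, and exceeded that of 94.4%, 96.2%, 97.4% and 97.9% of tested probes. Peritrophins 1-F in T+, off in all 4 females, was the exception, with an SD of 0.049.

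The clones were next set against W by overlap, as a description. All 4 animals of clone 16 lay below all W animals for 3 of the 4 probes, as 4.82% of tested probes did. In clone 17 this held for RR-2 23 alone, against 1.79% of tested probes. In T+ it held for 3 of the 4 probes, against 3.38% of tested probes. The exception was RR-2 23 in clone 16 and the cuticle protein in T+. Without W replicate 7 the differences from W of peritrophins 1-F, 50Cb, the cuticle protein and RR-2 23 were -4.90, -7.28, -7.57 and -3.58 in clone 16. In clone 17 they were -3.74, -3.55, -1.64 and -6.24, and in T+ those of 50Cb, the cuticle protein and RR-2 23 were -5.35, -3.22 and -6.39, peritrophins 1-F being off there. The cuticle protein, low in this animal, thus moved most, and its difference in clone 17 was -0.99 with all arrays.

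Differences between mutant clones were not the contrast that chose the probes, although the analysis of variance of the study covered all 4 clones, so their choice was not wholly independent of these differences. They were tested with limma (two-sided), and p-values were adjusted over 17286 probes by the method of Benjamini and Hochberg. None of the 4 probes was called (adjusted p below 0.05 and at least 1.5-fold) in clone 16 against T+, clone 17 against T+ or clone 16 against clone 17, where 0.0463%, 0.0289% and 0.00579% of all tested probes were called. Unadjusted p-values below 0.05 numbered 3572, 549 and 2764 in these comparisons. In clone 17 against T+, where animals of the same number deviated together, 5 probes were called without and 3 with the replicate number as a block, none of the 4 cuticular probes among them. The largest difference was that of the cuticle protein in clone 16 against clone 17, which was -5.93 on the log2 scale (SE 1.39, 95% confidence interval -8.91 to -2.94, adjusted p = 0.235, limma), with all 4 animals of clone 16 below all of clone 17. Such a separation was seen for 4.64% of tested probes, and the opposite one, shown by none of the 4, for 3.78%. In clone 16 against T+ the same probe differed by -4.35 (SE 1.39, interval -7.33 to -1.36, adjusted p = 0.130, limma), with 3 of 4 animals of clone 16 below all of T+. None of the 4 probes separated clone 16 from T+ without overlap, as 5.32% of tested probes did with clone 16 lower and 6.19% with clone 16 higher. In clone 17 against T+ it differed by 1.58 (SE 1.39, interval -1.41 to 4.57, adjusted p = 0.999, limma).

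Single animals decided these tests. Without replicate 5 of T+ the cuticle protein difference in clone 16 against T+ was -5.48 (adjusted p = 0.0127, limma). In that setting 2642 of the 17286 tested probes were called, so passing was not particular to this probe. In clone 16 against clone 17 the adjusted p for this probe was 0.0356 without replicate 5 of T+ and 0.0202 without replicate 5 of clone 17 (limma). Without the latter animal 1792 probes were called in this comparison. Over all alternatives the adjusted p of the cuticle protein in clone 16 against clone 17 ranged between 0.000127 and 0.563. In clone 16 against T+ it ranged between 0.00027 and 0.339, with the lowest values of both under array weights. The animals numbered 5 in T+ and clone 17 also had low 50Cb.

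For 50Cb the order of the mutant clones was that of the cuticle protein, with clone 16 lowest and clone 17 highest. Clone 16 differed from clone 17 by -3.73 on the log2 scale (SE 1.18, interval -6.26 to -1.20, adjusted p = 0.235, limma), with 3 of 4 animals of clone 16 below all of clone 17. Without clone 17 replicate 5 the difference was -4.48 (adjusted p = 0.0325, limma), where 1792 of all tested probes were called. Over all alternatives the adjusted p ranged between 0.0042 and 0.601. Clone 16 differed from T+ by -1.93 (SE 1.18, interval -4.47 to 0.60, adjusted p = 0.393, limma). Clone 17 differed from T+ by 1.80 (SE 1.18, interval -0.74 to 4.33, adjusted p = 0.999, limma).

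For RR-2 23 the mean of clone 16 was the highest among the mutant clones. Clone 16 differed from T+ by 2.81 (SE 1.47, interval -0.35 to 5.96, adjusted p = 0.305, limma) and from clone 17 by 2.66 (SE 1.47, interval -0.50 to 5.81, adjusted p = 0.416, limma). Between clone 17 and T+ the difference was 0.15 (SE 1.47, interval -3.00 to 3.30, adjusted p = 0.999, limma). None of these differences exceeded the spread between animals by the test, although array weights took both clone 16 comparisons past the threshold (adjusted p over all alternatives 0.0384 to 0.686 against T+ and 0.0043 to 0.884 against clone 17, limma). Array weights called 4080 probes in clone 16 against T+ and 3458 in clone 16 against clone 17. For peritrophins 1-F the differences of 0.66 in clone 16 against T+, 1.82 in clone 17 against T+ and -1.16 in clone 16 against clone 17 were each made mostly by a single animal (adjusted p = 0.784, 0.999 and 0.684, limma). Without clone 16 replicate 7 the first was -0.02, and without clone 17 replicate 3 the third was 0.11. In clone 17 against T+ all 4 animals of clone 17 were above all of T+, as for 1.97% of tested probes, but 3 of them were off. None of the 4 probes had all of clone 17 below all of T+, against 2.23% of tested probes.

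The question of whether the probes rose together was asked within clones, from the deviation of each animal from its clone mean, since the choice of the probes had used clone means. The 6 pairs were tested by exact permutation over the 331776 orders of the 16 animals within clones, two-sided, and p-values were adjusted over the 6 pairs by the same method. 50Cb and the cuticle protein varied together, with r = 0.853 (p = 0.00025, adjusted p = 0.0015) and rho = 0.891 (p = 0.00012, adjusted p = 0.00071), by the exact permutation test. Without the 2 animals farthest from the median of 50Cb, clone 16 replicate 7 and clone 17 replicate 3, r was 0.882 (exact permutation p = 0.004, adjusted p = 0.024). Without replicate 5 of T+ and of clone 17 it was 0.756 (exact permutation p = 0.004, adjusted p = 0.024). Without W replicate 7 it was 0.860 (exact permutation, adjusted p = 0.00297). Same-numbered animals of clone 17 and T+ deviated together, and with the replicate number as a block r was 0.718 (exact permutation, adjusted p = 0.0477). Over the arrays of slide 1 it was 0.854 and over those of slide 2 it was 0.924. Each slide held only 1 or 2 animals of a clone, so within slides the permutation test could not pass the threshold. How many other pairs of tested probes varied together as closely within clones was not counted.

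Peritrophins 1-F followed 50Cb less firmly. It was off in 10 of the 16 animals, so most of its values were background signal. The correlation was r = 0.757 (p = 0.00538, adjusted p = 0.0161) and rho = 0.632 (p = 0.00683, adjusted p = 0.0205) by the exact permutation test. Without clone 16 replicate 7 and clone 17 replicate 3, the mutant animals with the probe on, r was 0.395 (exact permutation p = 0.173), so the relation rested on these 2 animals. With the replicate number as a block r was 0.747 (exact permutation, adjusted p = 0.0872), which no longer passed the threshold. On slide 1 it was 0.661 and on slide 2 it was 0.848. With the cuticle protein peritrophins 1-F gave r = 0.608 (p = 0.0268, adjusted p = 0.0537) and rho = 0.629 (p = 0.0125, adjusted p = 0.0251), and without the same 2 animals r = 0.551 (p = 0.167), by the exact permutation test. On slide 1 this r was 0.742 and on slide 2 it was 0.627.

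RR-2 23 was not found to vary with any of the other 3 probes. Its r was 0.198 with peritrophins 1-F (p = 0.681), 0.219 with 50Cb (p = 0.520) and -0.220 with the cuticle protein (p = 0.472), by the exact permutation test, with adjusted p = 0.681, 0.624 and 0.624. The rho values were 0.159, 0.224 and -0.088 (exact permutation p = 0.752, 0.477 and 0.774). The animals farthest from the median were taken by the other probe of each pair, not by RR-2 23. For peritrophins 1-F and 50Cb they were clone 16 replicate 7 and clone 17 replicate 3, and without them r was -0.286 and -0.180. For the cuticle protein they were replicate 5 of T+ and of clone 17, and without them r was 0.074. The sign differed between slides, with r of -0.482, -0.667 and -0.926 on slide 1 and 0.898, 0.908 and 0.684 on slide 2. Each slide held 1 or 2 animals of a clone (15 arrays in all, since the slide of W replicate 7 is not given), too few for the permutations to pass the threshold. Leaving out clone 17 replicate 5 gave r = 0.666 with 50Cb (adjusted p = 0.0487, exact permutation).

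**Figure D2:**
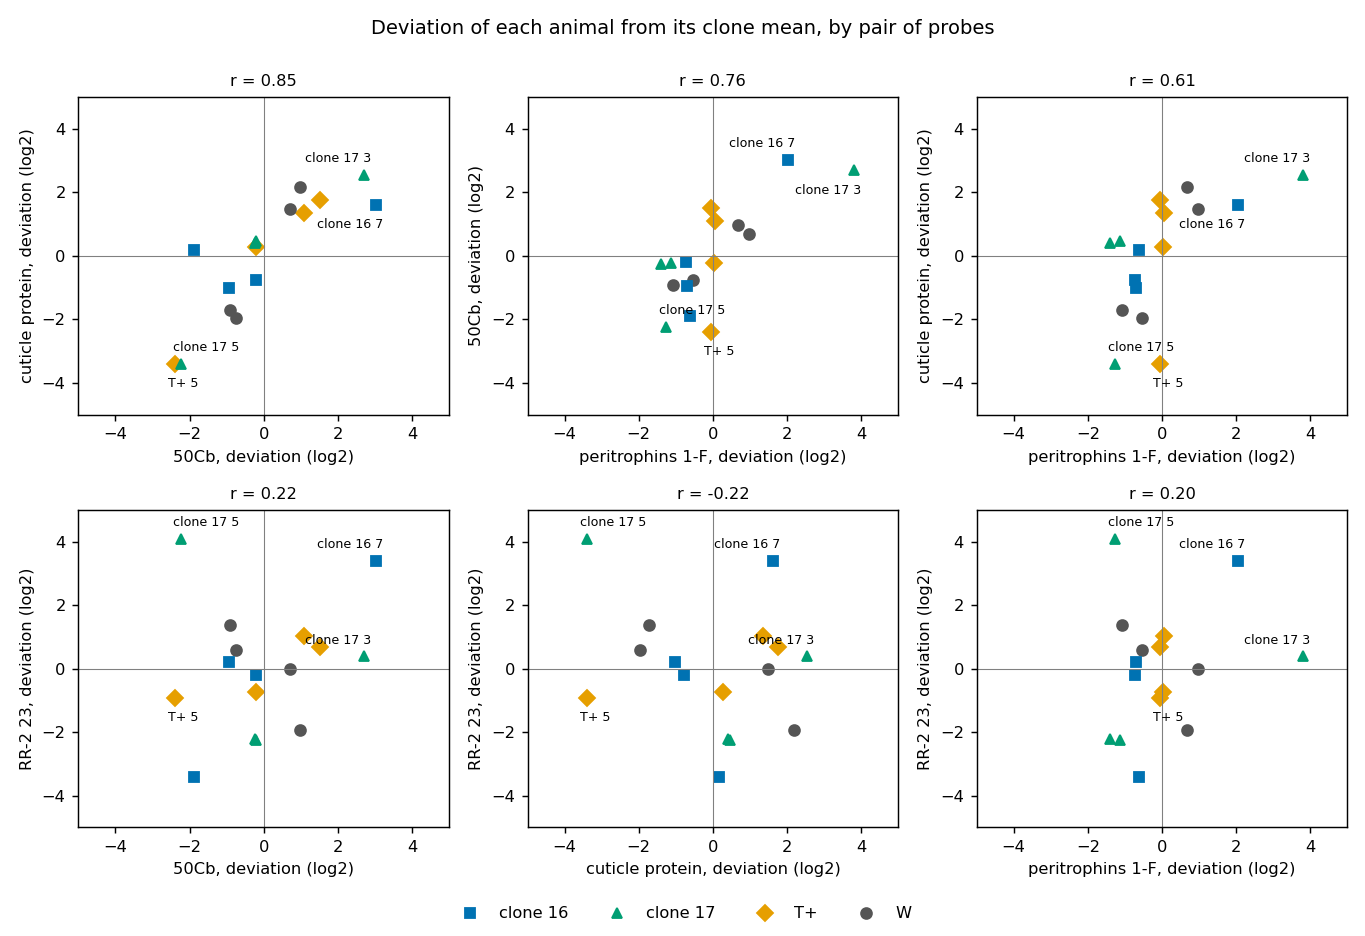
Deviation of each female from its clone mean, in log2 units, for the 6 pairs of probes (both axes), with Pearson r above each panel. 50Cb and the cuticle protein lie along a line (r = 0.85), whereas the 3 panels with RR-2 23 show no common direction (r = 0.22, -0.22 and 0.20).

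The animals were then placed by the rest of their transcripts. A principal component analysis of 17252 tested probes, without the cuticle and chitin probes of the list of the study, gave a first component with 60.5% of the variance, whose sign is arbitrary. The mutant animals formed 2 separate clusters on it, the first with the 4 animals of clone 16 and replicate 5 of T+ and of clone 17 (scores of 78.8 to 107), and the second with the other 6 (scores of -103 to -61.1). The W animals lay between -48.9 and 53.8. The cuticle protein ranged between 6.06 and 9.59 in the first cluster and between 11.70 and 15.54 in the second, without overlap. The other 3 probes overlapped between the clusters. Since the clusters and the component were taken from the arrays, these ranges and r values are given with no test. The share of all tested probes without overlap between the clusters was not counted, so the separation cannot be called particular to the cuticle protein. Over the 16 animals, 510 of 17269 tested probes had r above 0.8 with the cuticle protein, and 430 had a negative r beyond the same size.

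The 6 animals with peritrophins 1-F on lay 31.9 to 78.8 from 0 on this component, and the 10 animals with it off lay 89.7 to 107 from 0. Among the 6 were the 4 W animals, at 31.9 to 53.8 from 0. Since the probe was chosen by its difference from W, this pattern in part restates the choice and is given with no test. The mutant animals with all 4 probes on, clone 17 replicate 3 at -61.1 and clone 16 replicate 7 at 78.8, lay nearest to W in their clusters. Animals with RR-2 23 off were found on both sides, T+ replicate 7 and clone 17 replicates 7 and 9 on the negative side and T+ replicate 5 and clone 16 replicate 5 on the positive side. 50Cb was off only on the positive side. The part of the moult stage in these positions was not tested.

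**Figure D3:**
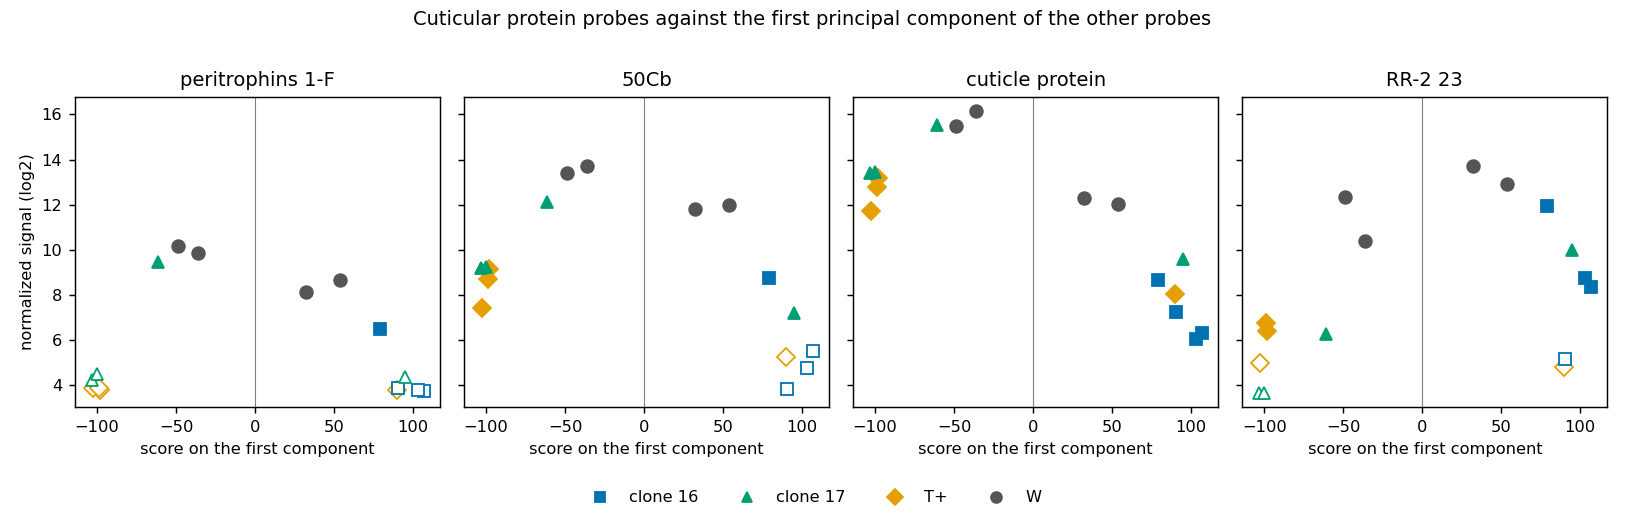
Normalized log2 signal of the 4 probes (y axis) against the score of each female on the first principal component of 17252 other probes (x axis, no unit). Open symbols are animals in which the probe was not well above background. The cuticle protein is 11.70 to 15.54 in the mutant animals on the left and 6.06 to 9.59 in those on the right, and peritrophins 1-F is on only within 78.8 of 0.

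Other probes of the cuticle and of chitin were taken from the same list of the study, chosen by it on these arrays and thus no independent evidence of direction. It holds 15 such probes besides the 4, of which 13, from 10 gene models, passed the filter on dim probes. In clone 16 the mean was lower than in W for 9 of the 13, against 34.8% of all tested probes, and for 7 all animals lay below all W animals, against 4.82%. In clone 17 the mean was lower for 13, against 39.3% of tested probes, and 6 showed no overlap, against 1.79%. In T+ the mean was lower for 12, against 42.2% of tested probes, and 11 showed no overlap, against 3.38%. Median differences from W were -2.66 in clone 16, -2.05 in clone 17 and -3.60 in T+ on the log2 scale, against 0.11, 0.07 and 0.06 over all tested probes. With probes that were off in all animals of a clone set to their bound, the medians were -2.66, -1.66 and -1.77. Among the mutants with all 4 probes on, clone 16 replicate 7 was the highest of its clone for 9 of the 13 probes and had 12 of them on, and clone 17 replicate 3 was the highest of its clone for 8 and had 10 on. The other animals of clone 16 had 7 to 10 on and those of clone 17 had 7 to 9, while T+ animals had 5 or 6 and W animals 12 or 13. The share of all tested probes highest in these 2 animals was not counted. Clone 16 replicate 7 also had the most probes well above background of any array (14616). CUST_123147_PI429715507 counted as highest in both animals although it was off there (4.025 and 4.72). The 8 of clone 17 replicate 3 include the chitinase probes, which come from a single gene model.

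**Figure D4:**
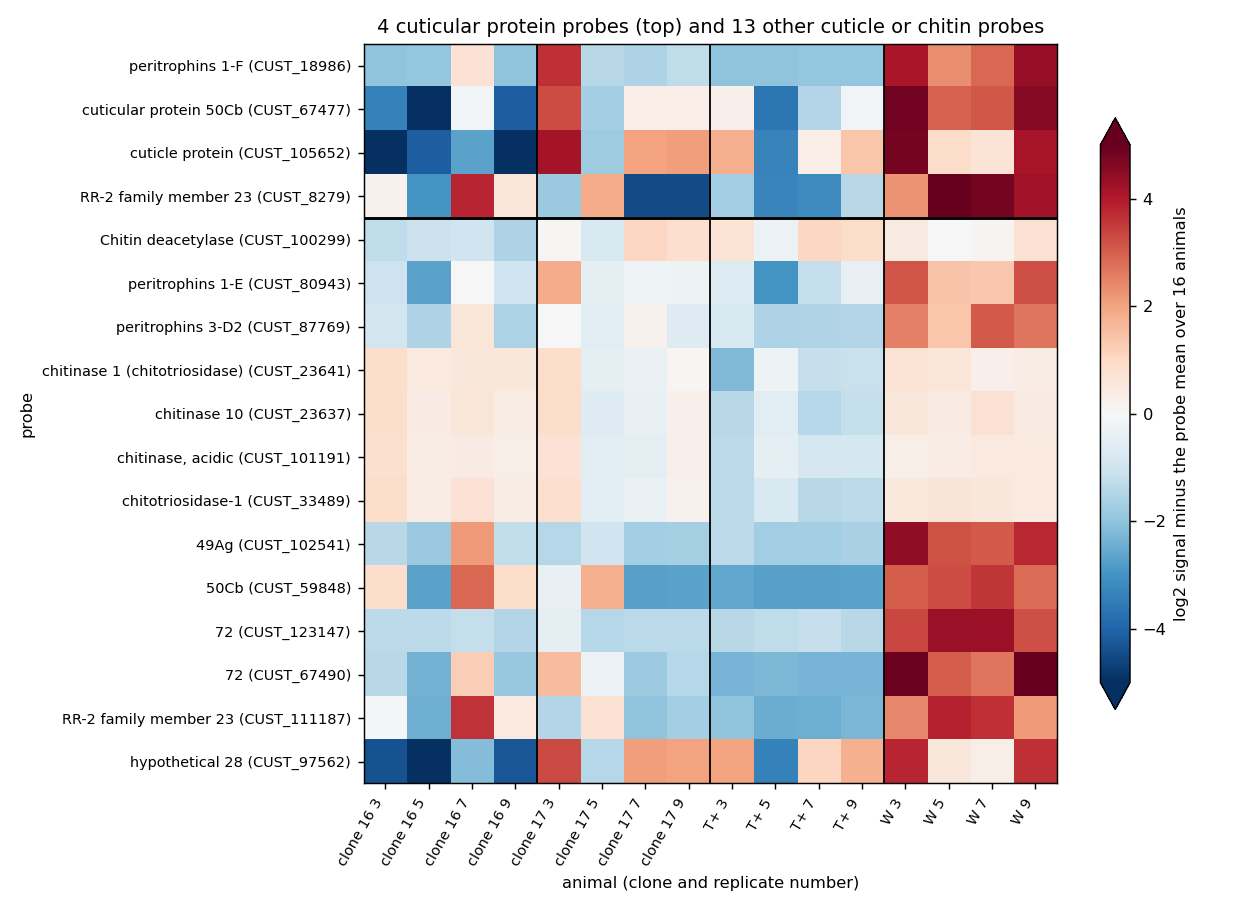
Log2 signal of the 4 probes (top) and of 13 other cuticle or chitin probes (rows) in the 16 females (columns, by clone and replicate), as the difference from the mean of the probe over all animals (colour, red higher). Clone 16 replicate 7 and clone 17 replicate 3 are red in more rows than the other animals of their clones, and the 4 chitinase rows, of 1 gene model, lie below their mean in every T+ animal.

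Among the other cuticular proteins, a cuticular protein precursor (CUST_67490_PI429715507, gene model Dapma7bEVm018552) was on in the same 6 animals as peritrophins 1-F. It gave 7.28 in clone 16 replicate 7 and 3.70 to 4.68 in the other animals of that clone, and 7.63 in clone 17 replicate 3 and 4.22 to 5.76 in the others. T+ animals gave 3.71 to 3.82 and W animals 8.71 to 11.06. Within clones its r with peritrophins 1-F was 0.875, a description over 16 animals of the same arrays. Cuticular protein 49Ag (CUST_102541_PI429715507), of the Rebers and Riddiford family in Drosophila, was on in all animals and stood out in clone 16 replicate 7 alone. It gave 12.49 there and 8.50 to 9.12 in the other animals of clone 16, 8.64 to 9.37 in clone 17, 8.61 to 9.04 in T+ and 13.42 to 14.78 in W. A probe with the same name as the precursor but from another gene model (CUST_123147_PI429715507) was on in the 4 W animals (8.43 to 9.53) and in no mutant animal (3.77 to 4.72).

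The peritrophin relatives followed peritrophins 1-F in part. Peritrophins 1-E (CUST_80943_PI429715507) was highest at 8.53 in replicate 7 of clone 16, where the other animals gave 5.88 to 7.56, and at 10.39 in replicate 3 of clone 17, where they gave 8.10 to 8.34. T+ animals gave 5.57 to 8.13 and W animals 9.89 to 11.77. For the 1-E probe r over the 16 animals was 0.907 with peritrophins 1-F and 0.938 with 50Cb, and within clones 0.712 and 0.901. Peritrophins 3-D2 (CUST_87769_PI429715507), of a family with several chitin-binding domains in insects, was on in 5 animals, the 4 of W (6.62 to 8.28) and clone 16 replicate 7 (5.81). In clone 17 replicate 3, where peritrophins 1-F was on, it was off at 5.21, below the 5.43 of replicate 7, and within clones its r with peritrophins 1-F was 0.489. A second probe of the gene model of peritrophins 1-F (CUST_140694_PI429715507) gave 7.50 in clone 17 replicate 3, the only mutant animal in which it was on, and it was off at 4.28 in clone 16 replicate 7. In W it was on in 3 of 4 animals, at 7.61, 6.64 and 8.05, and in replicate 7 it was off at 5.82. The value of clone 17 replicate 3 was thus seen with both probes, and that of clone 16 replicate 7 only with the first. The second probe was dimmer, with a W mean of 7.03 against 9.19 for the first. Its off state in clone 16 replicate 7 therefore cannot decide whether the value of the first probe holds.

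Probes that carried the same name did not always move together. The second RR-2 23 probe (CUST_111187_PI429715507, gene model Dapma7bEVm008546) followed the first over the 16 animals (r = 0.951, within clones 0.890). It was highest in W (8.42 to 10.14) and in clone 16 replicate 7 (9.89). The second 50Cb probe (CUST_59848_PI429715507, gene model Dapma7bEVm002510) did not follow the first (r = 0.504, within clones 0.247) but followed RR-2 23 (r = 0.949, within clones 0.920). It was off in all T+ animals, at 3.61 to 3.71, where 50Cb itself was on in 3 of 4. In clone 17 it was 8.11 in replicate 5 and 5.97 in replicate 3, the reverse of 50Cb (7.19 and 12.13). The 2 probes called 50Cb come from different gene models, and the files do not tell which name fits better.

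**Figure D5:**
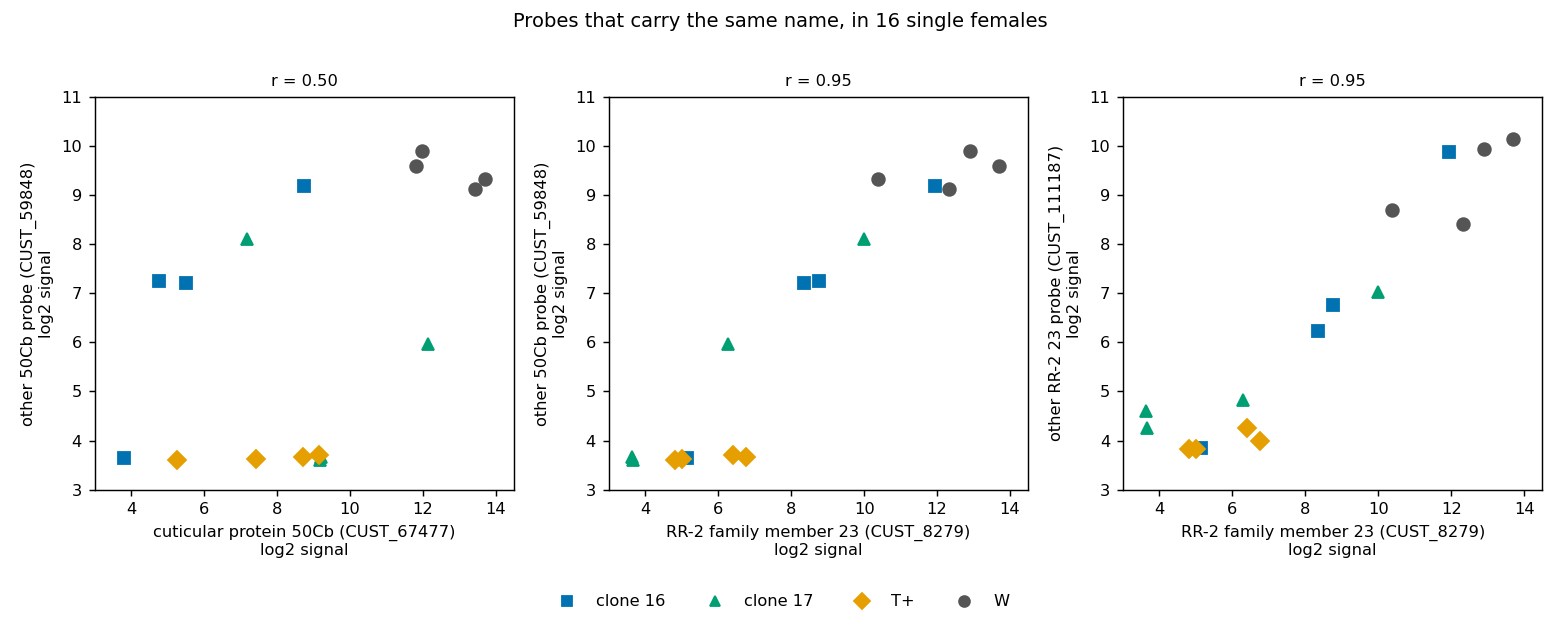
Log2 signals of probes with a shared name in the 16 females, each symbol 1 animal. The second 50Cb probe (y axis) is scattered against the first (left, r = 0.50) and follows RR-2 23 (middle, r = 0.95), as the second RR-2 23 probe does (right, r = 0.95).

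The nearest probes over the 16 animals differed between the 4. For peritrophins 1-F the nearest of 17269 tested probes was that of the fatty acid elongase ELOVL4 (CUST_24704_PI429715507, r = 0.972), an enzyme that lengthens very long fatty acid chains. The mean log2 signal of the elongase probe was 4.84, under the lowest well above background signal of every array. Peritrophins 1-F was itself off in 10 of the 16 animals, so many values behind this r were background signal. For 50Cb it was CUST_8274_PI429715507 (r = 0.984), which has no name in the list of the study, and the nearest named probe was nose resistant to fluoxetine protein 6-like (CUST_138878_PI429715507, r = 0.971), named after a membrane protein of Caenorhabditis elegans. For the cuticle protein it was CUST_53253_PI429715507 (r = 0.988), also without a name, and the nearest named probe was cuticular protein hypothetical 28 (CUST_97562_PI429715507, r = 0.985). For RR-2 23 it was the unnamed CUST_9800_PI429715507 (r = 0.968), and the nearest named probe was the second RR-2 23 probe. These r values include the difference from W, share the same arrays and are given with no test. Among the 100 nearest probes of each, peritrophins 1-F and 50Cb shared 36, 50Cb and the cuticle protein shared 25, and peritrophins 1-F and RR-2 23 shared 13. RR-2 23 shared none with 50Cb or the cuticle protein, and peritrophins 1-F shared 1 with the cuticle protein.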

How the data were processed

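Per the labels, total RNA of single females was labelled with Cy3 and read with Agilent Feature Extraction (10.5.1.1 in the file headers). The authors deposited spot intensity files, whose processed signal is background-corrected and not normalized between arrays, and a table of normalized log2 values, which matched quantile-normalized log2 processed signals minus the probe median (r = 0.99988). Here log2 processed signals (floor 1) were used without control and outlier spots, averaged per probe and quantile normalized. The tested probes, 17286 of 51424, exceeded the 95th percentile of 2840 negative controls on 4 or more arrays. limma 3.58.1 (R 4.3.3) was fitted to all 16 arrays, and the spread between 4 arrays per clone limits the precision. Correlations were tested with NumPy 2.4.6. Replicate numbers were checked for pairing by the correlation of deviations from clone means, which was 0.21 to 0.80 for clone 17 and T+ (4 pairs, all over 0.1, the only pair of clones for which this held). Both procedures were tested on simulated data. A bound (at least N-fold) uses the lowest signal among probes well above background on each array. The members and lists, the tests and the named probes (the 4 members, listed probes with a member's name or family, nearest probes) were chosen with earlier results of these data known. Alternatives were the normalization, background correction, filter, fold limit, model, slide, replicate number and single arrays. No sequences or genome positions were used here.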

Additional observations from a re-analysis of the deposited data

Results flagged for a closer look

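In the 16 groups of 4 animals formed by the 4 probes and 4 clones, 2 held an animal that lay far from the other 3 by Dixon's criterion. For normally distributed values chance gives about 1 in 20 groups. Both were for peritrophins 1-F, in groups where the other 3 animals had the probe off at background signal. The flags therefore restate that a single animal of each clone had it on. Clone 16 replicate 7 had a log2 signal of 6.50, where the other animals of the clone had 3.75 to 3.84. Clone 17 replicate 3 had 9.44, where the other animals had 4.22 to 4.50. These were the mutant animals in which all 4 cuticular protein probes were on by the mark of the scanner software, though not above the 99th percentile of negative controls.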

How the results depend on the processing

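With 4 animals per clone, single animals changed the number of probes called. Leaving out each array in turn gave 4 to 2642 probes in clone 16 against T+ (8 with all arrays), 1 to 6 in clone 17 against T+ (5) and 1 to 1792 in clone 16 against clone 17 (1), with the highest numbers without replicate 5 of T+ (2642 and 405) or of clone 17 (891 and 1792). Without both these animals the numbers were 3193, 1 and 2696, with array weights 4080, 26 and 3458, with only the arrays of the compared clones 142, 2 and 13, and without a filter on dim probes the last was 2. Same-numbered animals of clone 17 and T+ deviated together, but those of the other pairs of clones did not in every case (14 of 24 correlations over 0.1), and the replicate block gave 13, 3 and 6 probes, with none of the 4 cuticular probes called. Array weights took 50Cb, the cuticle protein and RR-2 23 past the threshold in clone 16 against T+ (-2.53, -5.50 and 3.00, adjusted p = 0.0492, 0.00027 and 0.0384) and against clone 17 (-4.01, -6.88 and 4.47, adjusted p = 0.0042, 0.000127 and 0.0043, limma). Without replicate 5 of T+ and of clone 17 the cuticle protein passed in both, and 50Cb against clone 17. Apart from the single animals named in the report, no other alternative called any of the 4 probes. Within clones, peritrophins 1-F and 50Cb gave r = 0.739 over the 12 mutant animals, 0.747 with the replicate block, 0.395 without the 2 farthest animals, 0.661 and 0.848 within slides, and 0.684 to 0.841 with each animal left out, with adjusted p above 0.05 in the first 5 and without clone 16 replicate 7 (0.0645). Peritrophins 1-F and the cuticle protein passed the threshold with 75th percentile scaling (r = 0.649) and without replicate 5 of T+ and of clone 17 (0.730), and gave 0.537 to 0.715 with each animal left out, passing without clone 17 replicate 3 or 5. 50Cb and the cuticle protein gave 0.813 to 0.923 with each animal left out and 0.718 with the replicate block (adjusted p = 0.0477), and 0.854 and 0.924 within slides, where the permutations cannot pass the threshold. RR-2 23 gave -0.100 to 0.666 with 50Cb, -0.422 to 0.169 with the cuticle protein and -0.039 to 0.485 with peritrophins 1-F when each animal was left out. The difference of the cuticle protein between clone 17 and W was -1.84 to 0.14 with each animal left out, and turned to 0.14 without clone 17 replicate 5, also when T+ replicate 5 was left out with it. Normexp background correction shrank peritrophins 1-F against W to -2.64 in clone 16 and -2.08 in clone 17. Without W replicate 7, differences from W kept their sign for all 4 probes in each mutant clone.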
